A study of Mus musculus with 2 samples.

Results

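The genes of the SR and hnRNP splicing factors were examined in total RNA of mouse calf muscle. Members were the protein-coding genes of GENCODE M21 whose symbol starts with Srsf and a digit, starts with Hnrnp, or is Tra2a or Tra2b. That rule took 33 of 22028 protein-coding genes, among 55536 annotated genes: 13 SR genes (11 Srsf genes with Tra2a and Tra2b) and 20 Hnrnp genes. A further 2 pseudogenes with matching symbols were left out. The rule used names only, and no measured value.

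The study sequenced gastrocnemius, the large calf muscle, of male B6CASTF1/J mice, F1 hybrids of a C57BL/6 and a CAST strain supplied by The Jackson Laboratory, at 18 to 20 months after birth per the sample descriptions. Its 2 libraries form 1 group with no treatment named, replicate 1 and replicate 2, each made from 300 ng of total RNA with synthetic ERCC spike-in RNAs. The labels number the males 3 and 4 but give both libraries the same donor record, so differences between the libraries may be technical as well as between animals, and no condition could be compared. Replicate 1 held 40795740 expected counts (reads assigned to genes, with ambiguous reads shared out) and replicate 2 held 44919441, of which members took 0.138% and 0.153%.

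SR proteins carry RNA-recognition motifs and a domain rich in serine and arginine, and they classically bind exonic enhancers and recruit the splicing machinery to nearby splice sites. The hnRNP proteins coat nascent transcripts, often bind silencer elements and oppose exon inclusion, and many also act in RNA export, localisation or stability. Many of these genes control their own level through splicing: the protein promotes inclusion of a cassette exon with an early stop codon (a poison exon), and the resulting RNA is a target of nonsense-mediated decay (NMD), the surveillance pathway that degrades transcripts whose stop codon lies well upstream of a splice junction.

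Poison exons were looked for in the annotated NMD transcripts of the members. The NMD shares described below rest on all of these transcripts, with or without such an exon. The 32 members with a mean TPM of at least 1 (the deposited transcript abundance, scaled per effective length and to a fixed total per library) had 39 transcripts typed as NMD targets, from 21 genes. In 15 of the 39 (38.5%), from 9 genes, the stop codon lay in an exon that touched no exon of a transcript typed protein coding, against 21.1% of the 5107 NMD transcripts of all protein-coding genes at that level. In another 12 (30.8%, against 5.97% over all genes) the stop codon was also that of a transcript typed protein coding, and in the remaining 12 (30.8%, against 72.9%) it lay in an exon overlapping coding ones. A type is the annotation's prediction from transcript structure, and decay itself was not measured.

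Of the stop-bearing exons absent from coding transcripts, those of the 5 transcripts that held at least 20% of their gene in either table are shown up to the stop codon, 5′ to 3′ on the gene's strand, from the GENCODE M21 transcript sequences (GRCm38, the mm10 assembly). Capitals mark the stop codon. The Tra2b stretch lies at chr16:22259181-22259261 (minus strand, 81 of the exon's 276 bases), that of Tra2a at chr6:49252965-49253108 (minus strand, 144 of 306 bases) and that of Srsf3 at chr17:29039454-29039487 (plus strand, 34 of 456 bases). The Srsf9 stretch lies at chr5:115328347-115328428 (plus strand, 82 of 358 bases) and that of Hnrnpll at chr17:80044976-80045022 (minus strand, 47 of 83 bases).
Tra2b-206: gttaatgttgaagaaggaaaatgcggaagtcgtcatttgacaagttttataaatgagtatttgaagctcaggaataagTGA
Tra2a-202: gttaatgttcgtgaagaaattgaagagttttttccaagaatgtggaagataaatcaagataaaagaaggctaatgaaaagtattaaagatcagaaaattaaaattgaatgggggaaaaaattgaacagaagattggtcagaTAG
Srsf3-201: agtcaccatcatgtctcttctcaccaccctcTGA
Srsf9-205: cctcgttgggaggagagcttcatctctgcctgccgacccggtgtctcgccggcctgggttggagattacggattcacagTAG
Hnrnpll-203: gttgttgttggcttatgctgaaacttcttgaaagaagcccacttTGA

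The Tra2a and Tra2b exons, which lie on different chromosomes, open with the same 9 bases, gttaatgtt, and each is the exon after the first in its transcript. Tra2 proteins are known to bind GAA-rich exonic enhancers. The motif GAAGAA was found in 2 of the 11 distinct stretches of the members, those of Tra2a and Tra2b, and its reverse complement TTCTTC in 1, that of Srsf7. On the transcript's strand, GAAGAA stood in 7.41% of 162 windows of the Tra2b length and in 12.9% of 31 windows of the Tra2a length, taken from the starts of such exons in all protein-coding genes at that level, members included. Purines made up 63.0% of the Tra2b stretch and 69.4% of the Tra2a stretch, and between 26.1% and 57.3% of the other stretches. A motif match is a description of these letters and not a measured binding site.

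Almost every member was expressed in the muscle, and the hnRNP genes had the higher median level. Of the 33 members, 32 reached 1 TPM or more in each library, against 10076 of 22028 protein-coding genes (45.7%). The exception was Srsf12, listed at 0.01 and 0.04 TPM in replicates 1 and 2 with 1 expected count in each. The median level of the 32 was 29.2 TPM, and 29 of them lay above 8.21 TPM, the median of all detected protein-coding genes outside the mitochondrial genome. The median was 32.7 TPM over the 20 hnRNP genes and 15.1 TPM over the 12 detected SR genes, and the families overlapped. Summed over genes, the hnRNP family had 747 and 842 TPM, or 0.178 ± 0.0208% (SD, n = 2) of nuclear protein-coding TPM. The SR family had 206 and 216 TPM, or 0.0471 ± 0.00299%.

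Among the hnRNP genes, Hnrnpa2b1 led, with 131.58 TPM in replicate 1 and 148.64 TPM in replicate 2. It lies on chromosome 6, 51460932 to 51469894, and encodes an A/B-type protein known for sorting RNAs as well as for splicing. Hnrnpk, which binds C-rich RNA through KH domains, followed at 93.46 and 107.54 TPM. These levels did not overlap with each other or with any lower member, whereas the next genes lay close together. Hnrnpu, a scaffold attachment factor that also binds chromatin (chromosome 1, 178321108 to 178337797), had 44.75 and 64.09 TPM, and Hnrnpa3 had 47.00 and 60.32 TPM. Hnrnpab, at 47.37 and 45.97 TPM, and Hnrnpl, which binds CA repeats, at 45.02 and 46.39 TPM, fell within the range of Hnrnpu. The 4 highest genes together held 33.2% and 36.0% of all member TPM.

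The G-tract binding genes of the F/H group were spread over a wide range. Hnrnpf had 41.56 and 44.79 TPM, Hnrnph1 39.14 and 41.57 TPM, the X-linked Hnrnph2 20.21 and 22.66 TPM, and Hnrnph3 8.58 and 10.22 TPM. Their order was the same in both libraries, and among neighbours only Hnrnpf and Hnrnph1 overlapped. Hnrnpa1, the best-studied splicing silencer of the family, had 31.63 and 39.97 TPM. Its count was divided by the authors with some uncertainty: the deposited posterior standard deviation was 2.29% of the expected counts in replicate 1 and 2.30% in replicate 2. The same holds for Hnrnpa3, at 1.85% and 1.71%, so both levels carry this uncertainty as well.

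A middle group lay between 28.53 and 36.54 TPM. It held Hnrnpc, which binds U tracts and packages pre-mRNA (32.57 and 36.54 TPM), Hnrnpd, also called AUF1, which binds AU-rich elements (30.11 and 31.40 TPM), and its relative Hnrnpdl (29.84 and 28.53 TPM). Hnrnpm had 29.69 and 31.26 TPM, and Hnrnpul1, a relative of Hnrnpu, had 29.07 and 30.96 TPM. Hnrnpc lay above the other genes of this group in both libraries, and Hnrnpm and Hnrnpul1 overlapped both Hnrnpd and Hnrnpdl, which did not overlap each other. Below them stood Hnrnpul2 at 16.87 and 18.66 TPM, the intronless gene Hnrnpa0 at 13.73 and 14.49 TPM, and Hnrnpr at 8.06 and 11.54 TPM. Hnrnpll, a paralogue of Hnrnpl known from lymphocyte splicing of Ptprc, was the lowest at 6.37 and 6.46 TPM.

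In the SR family, Srsf5, Srsf2 and Srsf1 led, and their levels overlapped. Srsf5 had 30.21 and 35.11 TPM, and Srsf2, the classical marker protein of nuclear speckles, had 34.31 and 30.36 TPM. Srsf1, the prototype of the family, had 26.76 and 31.71 TPM. Srsf3, the smallest SR protein and an adaptor for mRNA export, had 21.27 and 20.49 TPM, above Srsf11 (15.83 and 17.46 TPM) and Srsf6 (16.87 and 16.08 TPM). Tra2b stood at 13.75 and 13.62 TPM and its paralogue Tra2a at 7.80 and 8.52 TPM, without overlap. Srsf7, which resembles Srsf3 and adds a zinc knuckle, had 11.05 and 13.43 TPM. It overlapped in level with Srsf4 (12.52 and 11.81 TPM) and Srsf10 (11.19 and 11.39 TPM), the latter known as a repressor of splicing after heat shock. Srsf9 was the lowest expressed SR gene, at 4.70 and 5.57 TPM.

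**Figure D1:**
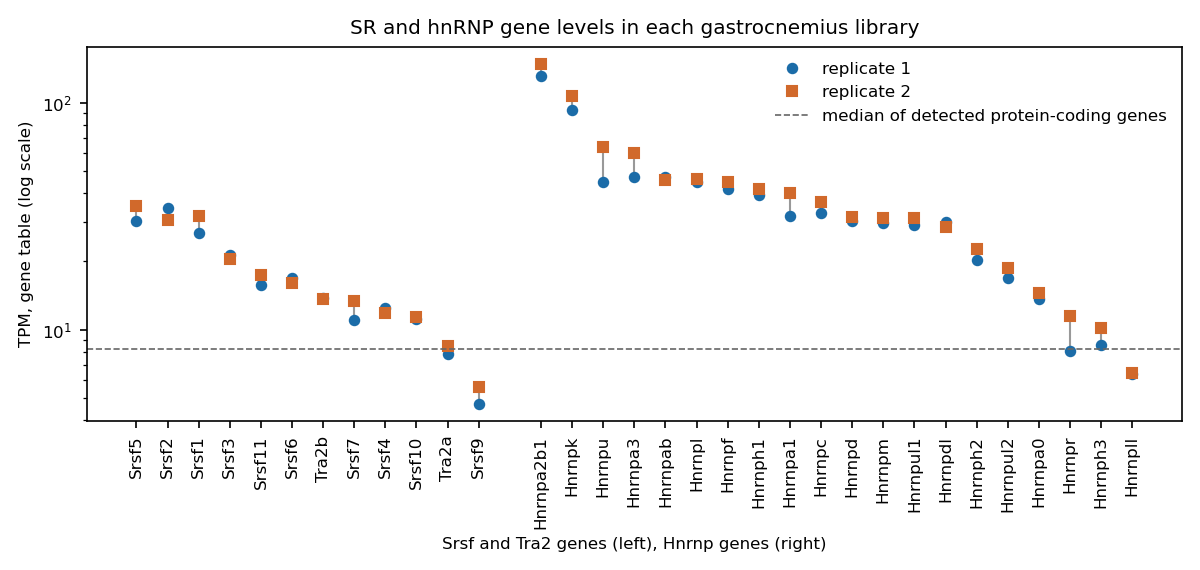
Level of each of the 32 detected members in replicate 1 (circles) and replicate 2 (squares), in TPM of the gene table on a log axis, with SR genes on the left and hnRNP genes on the right. The dashed line is the median of detected nuclear protein-coding genes, 8.21 TPM, and 29 members lay above it by their mean. Hnrnpa2b1 and Hnrnpk stand apart at the top, and Hnrnpu shows a wide gap between the libraries.

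The libraries differed little in these genes, and where they did, hnRNP genes were mostly higher in replicate 2. By a 2-sided exact binomial test of the counts of these libraries over 14965 genes, with Benjamini-Hochberg adjustment, 0 of 32 members were called higher in replicate 2 at an adjusted p below 0.05 and at least 2-fold, where 4.4% of all genes were. In the other direction 0 members were called, against 1.65% of all genes. With so few calls over all genes, 0 among 32 members says little about these genes. At an unadjusted p below 0.05 there were 17 of 32 members, against 42.0% of all genes. The median absolute log2 ratio was 0.11 over members, 0.21 over all genes tested and 0.16 over the 10305 genes whose mean count was 100 or more. Expected counts of the tested members ran from 174 (Srsf9, replicate 1) to 7671 (Hnrnpa2b1, replicate 2), and genes of matched counts were not compared. The binomial test holds counting error only and compares libraries, not conditions.

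With no fold limit, a setting chosen after seeing the data, 12 members passed toward replicate 2 (background 18.7%) and 2 toward replicate 1 (background 16.2%). The 12 were 10 of the 20 hnRNP genes and 2 of the 12 tested SR genes. The widest difference was that of Hnrnpu, whose expected counts of 4336 and 6894 gave a log2 ratio of 0.49 (adjusted p = 2.3e-68), and no member passed 1.5-fold. Hnrnpr was 1.26-fold higher in replicate 2 (adjusted p = 1.7e-05), Hnrnpa1 1.25-fold (2.9e-10), Srsf7 1.22-fold (0.0056) and Hnrnpa3 1.20-fold (5.4e-14). Srsf2 and Hnrnpab were the 2 on the side of replicate 1, with ratios of replicate 2 to replicate 1 of 0.832 (4.3e-07) and 0.935 (0.042). The Srsf2 locus, introns included, overlaps that of Mettl23 (15.20 and 17.46 TPM) on the opposite strand over 3194 bases. The deposited posterior standard deviation of the Srsf2 count was 0 in both libraries. Whether Mettl23 reads entered that count, if counting did not use strand, was not tested. Hnrnpm overlaps March2 on its own strand over 1169 bases (37.62 and 38.20 TPM), where strand cannot tell their reads apart.

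Seen as a group, 16 of 20 hnRNP genes had a log2 ratio above 0, with a median of 0.11, and 6 of 12 SR genes did, with a median of -0.0095. Over all members 22 of 32 lay above 0, where 51.3% of all genes did, and the median was 0.10 against 0.0090. Scaling to the spike-ins moved the median of all genes to 0.23 and that of the members to 0.32. The slow muscle fibre markers differed far more between the libraries: the summed level of Myh7, Myl2, Tnnt1, Tnni1 and Atp2a2 was 133 TPM in replicate 1 and 1520 TPM in replicate 2, and 5 of 5 were called higher in replicate 2.

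Other cell types also differed, and their part in the members' difference was not tested. The endothelial list summed to 28.0 and 44.3 TPM (2 of 4 called higher in replicate 2), the adipocyte list to 14.3 and 26.8 TPM (2 of 3) and the Schwann cell list to 18.4 and 28.5 TPM (1 of 4). No gene was called on the other lists: smooth muscle and pericytes had 91.0 and 124 TPM, fibroblasts 192 and 201 TPM, macrophages 12.3 and 14.2 TPM, and satellite cells 2.19 and 3.05 TPM. The 5 genes of the skeletal muscle fibre list, Acta1, Ckm, Myh4, Tnnt3 and Mylpf, summed to 92077 and 70633 TPM. That list holds none of the slow fibre markers. Its ratios of scaled counts, replicate 2 over replicate 1, ran from 0.667 in Myh4 to 0.843 in Acta1. No marker of any list was at 0. Of the nuclear RNAs, Malat1 had 1080 and 960 TPM, Neat1 118 and 126 TPM, and Meg3 6.77 and 3.82 TPM, with log2 ratios of scaled counts of -0.18, -0.54 and -0.95. In whole tissue, fewer cells of a type and less RNA per cell cannot be told apart.

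**Figure D2:**
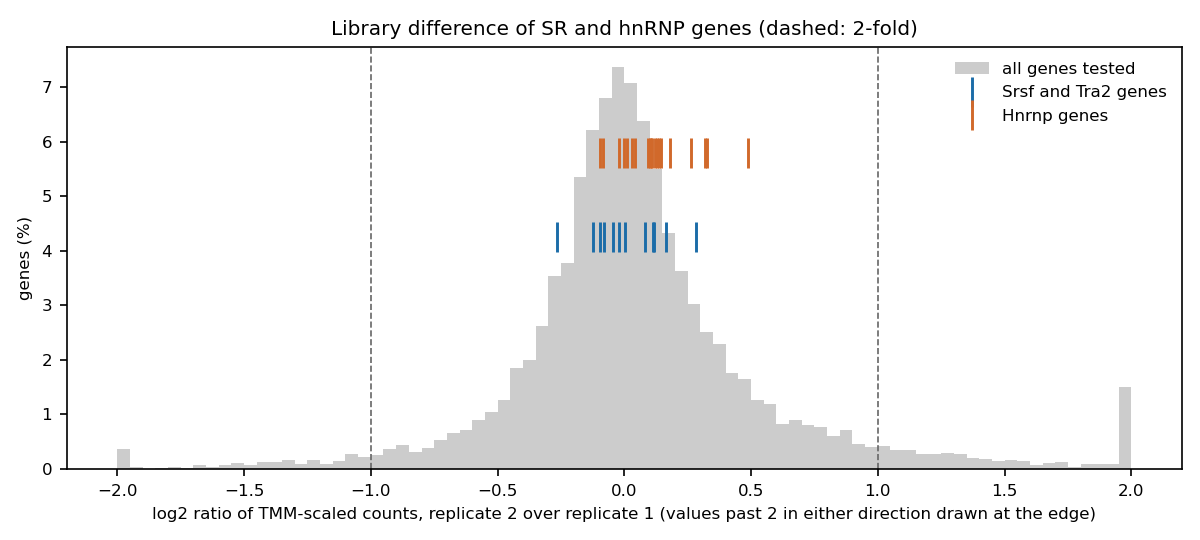
Distribution over all 14965 genes tested of the log2 ratio of TMM-scaled counts, replicate 2 over replicate 1 (grey bars, percent of genes), with each SR gene (lower ticks) and hnRNP gene (upper ticks) marked. All 32 members lie between the dashed 2-fold lines, and 16 of 20 hnRNP ticks lie to the right of 0.

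The deposited files quantify the reads a second time, at the transcript level, and there a large part of the members' RNA was not typed as coding. For the gene totals the quantifications were close: in share of protein-coding TPM, 0 of 32 members were at least 2-fold higher in the second (background 0.54%) and 0 at least 2-fold lower (background 1.14%), with ratios from 0.767 in Srsf1 to 1.16 in Srsf11. Within genes, the median share of TPM on protein-coding transcripts was 73.0% over members in the second transcript table, against 92.3% over 10329 protein-coding genes, and 73.3% against 94.2% in the first. The coding share was under 50% in 8 of 32 members in the second table (25%, background 9.43%) and in 6 (18.8%, background 7.11%) in the first, 5 of them in both. The median was 55.6% in SR genes and 83.4% in hnRNP genes in the second table, and 55.4% and 79.9% in the first.

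NMD-typed transcripts were annotated for more of the members than of other genes and held more of their RNA. They existed for 21 of 32 members (65.6%) against 29.9% of all protein-coding genes at that level, and for 11 of 12 SR genes. In genes that had one, the median NMD share was 17.1% over the 21 members against 5.90% over 3105 genes in the second table, and 16.1% against 3.36% in the first. At least 20% of TPM was NMD-typed in 10 of the 21 in the second table (47.6%, background 23.3%) and in 9 in the first (42.9%, background 19.3%), with 8 in both. In estimated counts rather than TPM, which gives short transcripts less weight, the medians were 13.7% and 2.88%. Members also had more annotated transcripts, a median of 7.5 against 5 per gene. In genes with any NMD-typed transcript, the median number of these was 2 per member against 1 per gene, so the shares compare unlike numbers of transcripts.

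The retained-intron type showed a different picture. It is taken from the annotation, and unspliced precursor RNA in the total RNA was not told apart from it. Transcripts typed so were annotated for 24 of 32 members (75%, against 61.2%) and held a median of 10.8% of TPM against 5.52% over 6352 genes in the second table, and 11.4% against 4.69% in the first. Yet a share of at least 20% was reached by only 3 of the 24 (12.5%) in each table, below the backgrounds of 20.2% in the second and 16.1% in the first. In estimated counts the member median of 3.12% lay near the 2.64% of all genes. The share was lower in replicate 2 in 17 of 24 members in the second table and in 18 of 24 in the first, where 50.9% and 51.7% of all genes were lower.

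**Figure D3:**
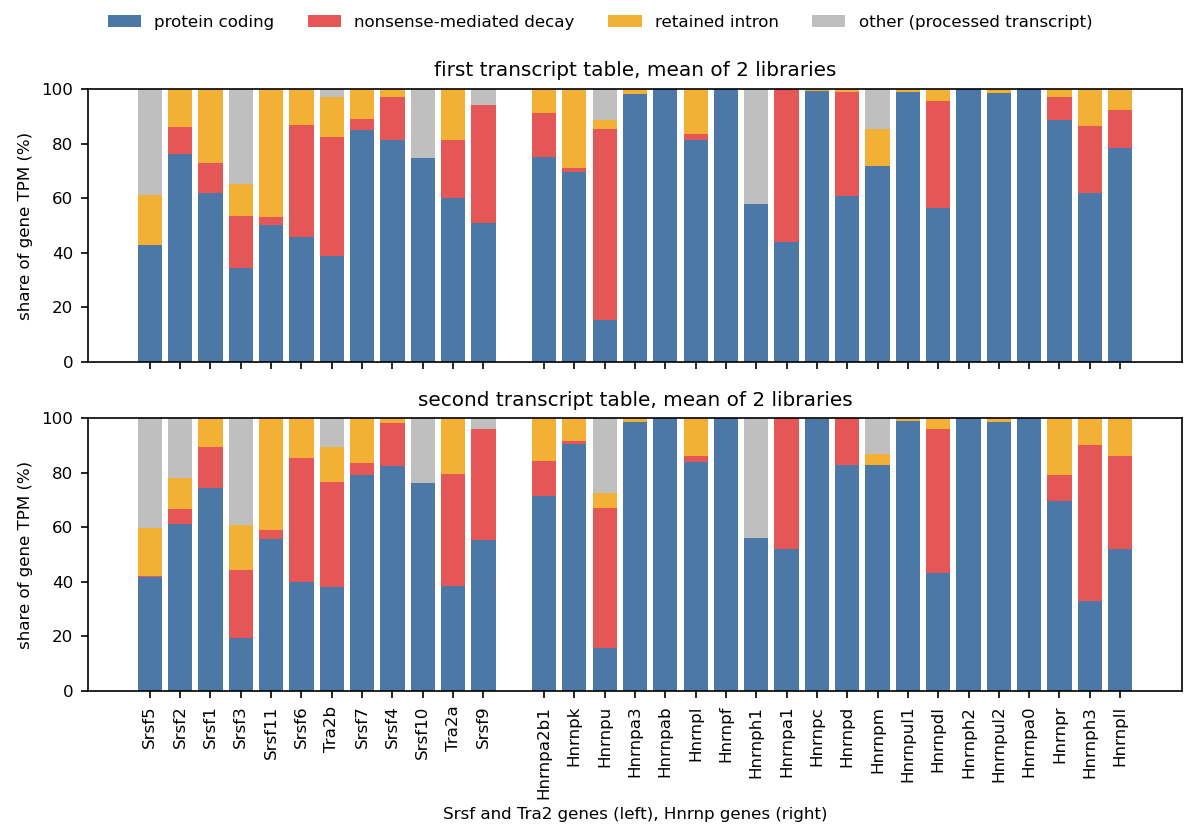
Share of each member's TPM (percent, mean of 2 libraries) on transcripts typed protein coding, nonsense-mediated decay, retained intron and other, in the first transcript table (upper panel) and the second (lower panel). SR genes on the left have lower coding shares, with a median of 55.6% in the second table, than hnRNP genes on the right, at 83.4%, among which 15.3% to 16.2% of Hnrnpu and 100% of Hnrnpab, Hnrnpf, Hnrnph2 and Hnrnpa0 are coding.

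The Tra2 genes carried much of their RNA on the exons printed above. Tra2b-206 held 34.3% and 40.2% of Tra2b TPM in the second table and 39.2% and 40.0% in the first, from 270 and 299 expected counts. Tra2a-202 held 39.4% and 42.9% of Tra2a in the second table, but 22.3% and 20.5% in the first. The tables therefore placed Tra2b alike and differed for Tra2a by more than the spread between libraries. On coding transcripts of the first table alone, Tra2b had 5.32 and 5.35 TPM and Tra2a 4.65 and 5.15 TPM.

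In Srsf6, a relative of Srsf4 and Srsf5, the NMD share was between 40.3% and 46.1% in every library and table. Its NMD-typed transcript Srsf6-201 held 46.1% and 44.5% in the second table and 40.3% and 41.7% in the first. Its stop codon, in a 268-base exon, is shared with a transcript typed protein coding. Srsf9-205 held 37.4% and 43.8% in the second table and 47.4% and 39.2% in the first, in a gene with only 174 and 214 expected counts and with no annotated coding start in that transcript. Srsf3-201, whose 456-base exon brings the stop after 34 bases, held 26.8% and 22.5% in the second table and 19.9% and 18.4% in the first. Only 20.7% and 18.2% of Srsf3 TPM was typed coding in the second table, and 32.4% and 36.2% in the first.

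The other SR genes had less NMD-typed RNA. In the second table the mean share was 15.0 ± 0.29% (SD, n = 2) in Srsf1, 15.8 ± 2.39% in Srsf4, 4.39 ± 0.865% in Srsf7 and 3.28 ± 0.453% in Srsf11. For Srsf2 it was 5.65 ± 5.86% in the second table and 9.76 ± 2.18% in the first, so the SD of the second table was as large as its mean. In Srsf5 it was under 1% in both libraries and tables, while 43.0% and 37.2% lay on processed transcripts without a coding sequence. Srsf10 had no transcript of the type.

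The retained-intron share was highest in Srsf11, the one member past 20% in both tables. It was 42.6% and 39.1% in the second table and 45.7% and 48.1% in the first, spread over several transcripts. The largest, Srsf11-211, is 521 bases long and held 20.4% and 17.8% in the second table, from few reads: 27.4 and 43.0 expected counts in the first table. Srsf1-203 held 17.4% and 22.7% of Srsf1 in the first table but 0% and 3.96% in the second. The same disagreement was seen in Hnrnpk-215, at 19.5% and 20.6% in the first and 3.50% and 3.33% in the second, and, in the opposite sense, in Hnrnpr-208, at 4.37% and 0% in the first and 19.7% and 21.1% in the second.

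The hnRNP genes ranged from almost only coding RNA to a large NMD-typed part. Hnrnpa0, Hnrnpab, Hnrnpf and Hnrnph2 had 100% coding RNA in both libraries and tables, and Hnrnpa3, Hnrnpc, Hnrnpul1 and Hnrnpul2 had at least 97.7%. Hnrnph1 had no NMD-typed transcript, but 44.3% and 43.3% of its TPM lay on processed transcripts without a coding sequence in the second table, and 43.2% and 40.7% in the first. Hnrnpm, Hnrnpk and Hnrnpl lay between, with 66.7% to 91.2% coding RNA and at most 4.39% NMD-typed. For NMD-typed RNA, Hnrnpu-206 held 49.7% and 51.6% of Hnrnpu in the second table and 59.5% and 65.8% in the first. It rested on 2309 and 4001 expected counts with posterior standard deviations of 34.7 and 43.0. The coding transcript Hnrnpu-201 is 7640 bases long against 2844 and had 1710 and 2472 expected counts, so its share was far smaller in TPM than in reads. On coding transcripts of the first table Hnrnpu had 7.18 and 9.48 TPM and ranked 24 among members, against 3 by its gene total. Processed transcripts held 27.8% and 26.8% of Hnrnpu in the second table and 11.3% and 11.2% in the first. The Hnrnpu locus, introns included, overlaps that of Cox20 (18.69 and 18.17 TPM) on the opposite strand over 1586 bases. The posterior standard deviation of the Hnrnpu gene count was 0 in both libraries. Whether Cox20 reads entered that count, if counting did not use strand, was not tested.

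Hnrnpa1 had 2 NMD-typed transcripts, each with a stop codon, in the same 70-base exon, that a transcript typed protein coding shares. The last splice junction lay 90 bases after the stop in Hnrnpa1-203 and 1801 bases after it in Hnrnpa1-204. Hnrnpa1-203 held 42.7% and 36.2% in the second table and 50.5% and 42.0% in the first, and Hnrnpa1-204 held 10.8% and 6.62%, and 11.8% and 8.05%. The coding TPM of the gene in the first table was 11.9 and 19.9, a wider difference between the libraries than in the gene total. Hnrnpdl-205 held 34.8% and 35.0% in the second table and 35.6% and 32.5% in the first. The start of Hnrnpdl-205 was not found in the annotation, and its stop lies in exon 1 of 8. A second NMD-typed transcript, Hnrnpdl-201, held 16.7% and 19.1% in the second table but 1.94% and 8.10% in the first, so the total NMD share of the gene was 52.8 ± 1.86% (SD, n = 2) in the second and 39.1 ± 2.16% in the first. In its relative Hnrnpd the tables differed as well: Hnrnpd-208 held 12.2% and 10.4% in the second table and 19.6% and 30.4% in the first. The start of Hnrnpd-208 was not found in the annotation either.

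The 2 hnRNP genes of lowest mean level also differed between the tables. Hnrnph3-204 held 54.5% and 59.4% in the second table but 31.1% and 17.9% in the first, on 129 and 97.2 expected counts. Hnrnpll-203 held 38.1% and 30.3% in the second, while the NMD share of Hnrnpll was 13.8 ± 2.66% (SD, n = 2) in the first. Hnrnpa2b1, the most abundant member, had a total NMD share of 12.9% and 12.7% in the second table and 17.4% and 14.9% in the first. That total was close, but it lay on Hnrnpa2b1-207 in one table and on Hnrnpa2b1-209 in the other. In all, the tables differed by over 10 percentage points for the NMD share of 6 of 21 members, the retained-intron share of 3 of 24 and the coding share of 11 of 32.

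**Figure D4:**
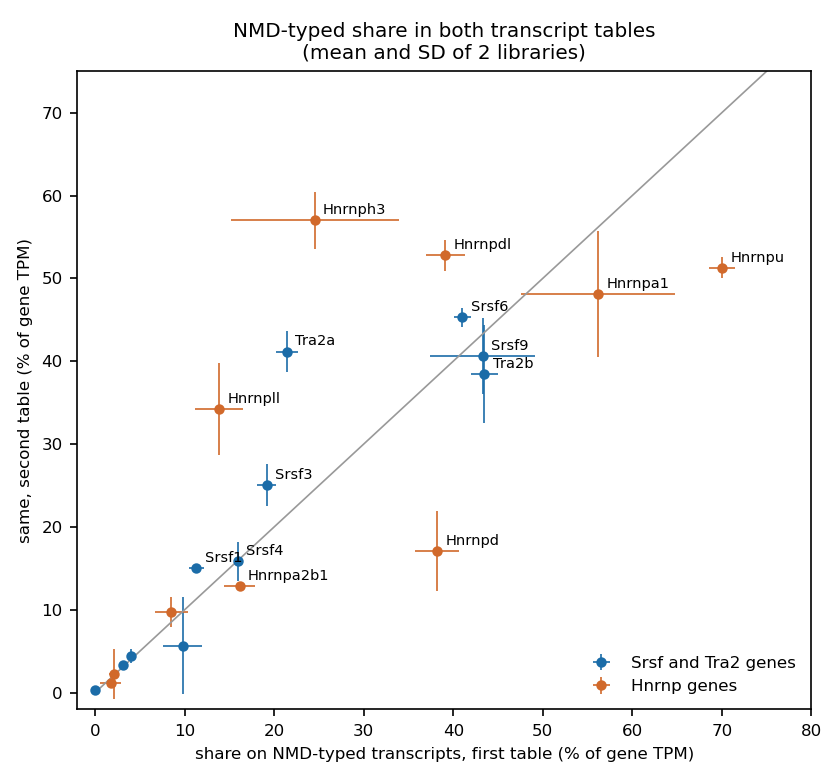
NMD-typed share of TPM in the first transcript table (x axis, percent) against the second (y axis, percent) for the 21 members with such a transcript, as mean and SD of 2 libraries, with the line of equal values. Srsf6, Srsf9, Tra2b and Hnrnpa1 lie near the line, whereas Hnrnph3, Tra2a and Hnrnpll lie above it and Hnrnpd and Hnrnpu below.

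By kind of stop codon, the NMD-typed RNA of the members lay mostly on transcripts whose stop-bearing exon overlapped an exon of a coding-typed transcript. Transcripts with a stop in an exon absent from coding transcripts, such as those of Tra2b and Srsf3, held 17.8% and 16.6% of the members' NMD-typed TPM in the second table and 14.2% and 12.5% in the first. Those sharing the stop with a coding-typed transcript held 49.6% and 43.8% in the second and 50.9% and 45.1% in the first. That class mixes stops at different places, because any coding-typed transcript with the same stop is enough. The stop of Srsf6-201 (exon 3 of 7) lay 534 bases before the last splice junction. For Hnrnph3-204 (exon 3 of 9) the distance was 609 bases, for Hnrnpa1-203 90 and for Hnrnpa2b1-209 157. The share on early-stop exons of every class was therefore not measured.

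Genes that act with the SR and hnRNP proteins had 0 calls at 2-fold between the libraries by the same exact binomial test, on any of 5 lists. Over all genes 4.4% were called higher in replicate 2 and 1.65% higher in replicate 1. At such shares, 0 calls in a list of 14 to 19 tested genes says little about these genes. Other hnRNP-type proteins (19 tested of 19) were led by the poly-C binding Pcbp2 at 152.95 and 172.87 TPM, above every member, by Tardbp (TDP-43) at 52.70 and 54.65 TPM and by Pcbp1 at 51.26 and 53.91 TPM. Kinases, phosphatases and import receptors of SR proteins (14 of 14) were led by the phosphatase subunits Ppp1cb at 190.70 and 212.51 TPM, Ppp1ca at 89.30 and 84.44 TPM and Ppp1cc at 71.52 and 52.88 TPM. Nuclear speckle and SR-related genes (16 of 18 tested) were led by Rsrp1 at 84.85 and 63.02 TPM, Srrm2 at 74.81 and 67.48 TPM and Luc7l2 at 43.38 and 45.34 TPM.

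The leading genes of the surveillance and splice-site lists were below those of the other lists. On the NMD list (14 of 14), Smg5, an adaptor of the decay step, had 19.19 and 20.26 TPM, and the exon junction helicase Eif4a3 had 15.53 and 18.35 TPM. Splice site recognition (14 of 14) was led by the branch point binding Sf1 at 37.05 and 37.87 TPM, Prpf8 at 30.35 and 29.91 TPM and the U1 protein gene Snrpc at 29.06 and 28.19 TPM. The median log2 ratios of the 5 lists, in the order named, were 0.032, -0.090, -0.023, -0.032 and -0.058, against 0.0090 over all genes. With no fold limit 27 of the 77 genes tested passed (35.1%, where 34.9% of all genes did), 7 of them higher in replicate 2 and 20 higher in replicate 1.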

How the data were processed

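Total RNA of 2 gastrocnemius libraries was quantified by the authors against mm10 and GENCODE M21, per the file list in each sample's deposit. Which programs made them is not given in the sources used here, per the labels and headers. The deposited gene table and first transcript table hold expected counts, TPM, percent of isoform use and posterior standard deviations, per the file headers. The deposited second transcript table holds estimated counts and TPM, per the file headers. TPM is a level per effective length. Rounded expected counts with TMM library sizes (edgeR 4.0.16 in R 4.3.3) entered a 2-sided exact binomial test over genes whose mean count was 10 or more; DESeq2 1.42.0 size factors were an alternative. With 1 group, edgeR's quasi-likelihood test was not applicable. The log2 ratio is of scaled counts + 0.5, replicate 2 over replicate 1. Shares by transcript type are percent of a gene's TPM, in genes with a mean TPM of at least 1. They are given for both libraries (40795740 and 44919441 expected counts). At this depth precision is limited for the lowest members, and for transcripts with few reads in higher members such as Srsf2. The binomial test was tried on simulated counts that held counting error only. The shares by transcript type, the kinds of stop codon and the motif windows were not simulated. Python 3.11.15, pandas 2.3.3, scipy 1.17.1 and matplotlib 3.10.9 were used. The members, the gene lists and the named-gene rule were chosen with earlier results of these data known. That rule names every member, the 3 most abundant genes of each list with any called gene, NMD or retained-intron transcripts holding at least 20% of a member with a mean TPM of at least 5, and cell type markers; other transcripts named were chosen after their values were seen. The alternatives were other scalings, filters, folds, pseudocounts, the second quantification, counts in place of TPM and leaving out each library. Of the genes that rule takes, 1 is not reported here.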

Additional observations from a re-analysis of the deposited data

How the results depend on the processing

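No member was called in either direction under DESeq2 size factors, spike-in scaling, no filter, a mean count of at least 100, the second quantification or a 1.5-fold limit. The share of all genes called is given for the main setting (4.4% toward replicate 2, 1.65% toward replicate 1) and with no fold limit only. The 0 counts of the other settings are therefore not set against a background. With no fold limit, added after seeing the data, 12 and 2 members passed, and 27 of 77 genes of the related lists (35.1%, against 34.9% of all genes). The members' median log2 ratio was 0.32 under spike-in scaling, which put the median of all genes at 0.23, and from 0.087 to 0.11 otherwise. The SR share of protein-coding TPM was 0.0439% in the second quantification and 0.0397% of expected counts, and the hnRNP share was 0.152% of expected counts. The median NMD share was 13.7% of estimated counts and ranged from 17.5% to 20.5% when each library was left out. The median retained-intron share was 3.12% of estimated counts, 9.49% in members with a mean TPM of at least 10, and 10.5% to 12.4% when each library was left out. The median coding share was 84.4% of estimated counts and 79.1% at a mean TPM of at least 10. No paired analysis was possible because the series has 1 group. With 2 libraries the SDs are themselves imprecise, and shares of single transcripts in members with few reads, such as Srsf9 and Hnrnph3, are the least certain.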

Other observations

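Among the genes of the 5 related lists, 39 had an NMD-typed transcript and a mean TPM of at least 1. Of these, 11 (28.2%, against 23.3% of all such genes) had an NMD share of at least 20% in the second transcript table, and 12 (30.8%, against 19.3%) in the first. The genes named next were chosen after their values were seen, for high values in the second table. Tardbp, which encodes the RNA-binding protein TDP-43 and is known to regulate its own RNA, had 48.3% of its TPM on NMD-typed transcripts in replicate 1 and 44.1% in replicate 2. Ppp1cb, a catalytic subunit of protein phosphatase 1, had 64.3% and 64.1%, and its relative Ppp1cc had 45.8% and 35.6%. The SR-related gene Scaf11 had 56.6% and 55.5%, and the splicing kinase gene Prpf4b 61.2% and 49.0%, with 19.5% and 24.8% on retained introns. In Pnn, a gene of nuclear speckles and cell junctions, the share was 35.5% in replicate 1 and listed at 0 in replicate 2, so single shares in a gene of 7.1 to 7.3 TPM can differ widely between the libraries.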
